A study of Drosophila melanogaster with 3 samples.

Results

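The single-copy histone variant genes of Drosophila melanogaster are 5 genes, His2Av, His3.3A, His3.3B, His4r and BigH1, taken by their symbols from the Ensembl annotation of 13968 protein-coding genes on the chromosome arms. Each symbol matched 1 gene. The regions described are those whose summit, the position of highest enrichment in a called region, lies inside a gene or within 500 bp of one of its annotated transcription start sites (TSSs). Chromatin immunoprecipitation sequencing with an anti-GFP antibody had been carried out on whole embryos, 0 to 24 hours old and of both sexes, from a transgenic line that stably expresses CG13775 with GFP at its C terminus. The 3 libraries, biological replicates 1, 2 and 4, form 1 group that shares the tagged transgene. Neither an untagged line nor an input library is among the samples used here, so the values show where enrichment was called and make no comparison between conditions. Because whole embryos were used, binding in few cells and weak binding in many cells cannot be told apart.

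Histones are the proteins around which DNA is wrapped. Most are made in S phase from a repeated gene cluster, whose messages lack a poly(A) tail. The replication-independent genes lie outside that cluster and give polyadenylated messages in any phase of the cell cycle. His2Av encodes the only H2A variant of the fly, which serves the roles of both H2A.Z and H2A.X. His3.3A and His3.3B both encode H3.3, the H3 variant deposited at active genes outside replication. His4r encodes the H4 protein that the cluster also makes, and BigH1 encodes the large linker histone of the germ line and the early embryo.

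In the list of peaks that passed the authors' irreproducible discovery rate (IDR) filter, the optimal list, His2Av and His3.3B had a peak, and His3.3A, His4r and BigH1 had none. His2Av stood highest, with a peak upstream of its start, whose summit lay just inside the divergent gene ball. The His3.3B peak lay in an intron between 2 internal starts. His4r and His3.3A had weaker regions in the longer list made from the libraries together, the pooled list, and BigH1 had none in it. A count of 2 of 5 members in the optimal list lies beside 30.8% of all protein-coding genes (4296 of 13968, exact 95% interval 30.0 to 31.5%), and beside 24.0% of the 10478 protein-coding genes of at most 5000 bp, a length that all 5 members fall under. With so few members these shares are not a result about the group.

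The layout of the promoters, which the choice of members did not use, was much alike. The starts of 4 of the 5 members faced that of a divergent protein-coding gene within 500 bp, an arrangement found at 24.9% of protein-coding genes (3481 of 13968). His3.3A and CG14036 had starts 42 bp apart, and those of His4r and put, a receptor gene of the activin and BMP pathway, lay 52 bp apart. The distance was 122 bp for His2Av and ball and 253 bp for BigH1 and Rad17, a DNA damage checkpoint gene. His3.3B was the exception, with the 3′ end of Ost48 259 bp upstream on the same strand. Of protein-coding genes with such a divergent partner, 55.6% had an optimal peak under the same rule, and of the 4 members with a partner 1 did, namely His2Av.

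The DNA between the divergent starts is shown for His2Av, His3.3A and His4r, read on the strand of the histone gene from the RefSeq Release 6 genome, so that the stretches with and without a region of the pooled list can be set side by side. Capitals mark bases inside a region of the pooled list that was counted for the histone gene. The summits of these regions lie outside the stretches shown, in ball for His2Av and in put for His4r. The His3.3A stretch has none, although the highest His3.3A region of replicate 4 covers it. For His3.3B, 101 bp centred on the summit of its optimal peak are given instead, on its own minus strand, and all of them are intronic.
His2Av and ball, chr3R:26866808-26866928: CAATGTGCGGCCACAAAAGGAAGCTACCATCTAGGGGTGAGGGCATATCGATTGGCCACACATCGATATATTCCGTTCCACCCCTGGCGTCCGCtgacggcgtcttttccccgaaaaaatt
His3.3A and CG14036, chr2L:5055017-5055057: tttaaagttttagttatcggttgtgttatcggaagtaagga
His4r and put, chr3R:14625704-14625754: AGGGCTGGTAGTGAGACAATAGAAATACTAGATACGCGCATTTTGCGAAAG
His3.3B summit, chrX:9155295-9155395: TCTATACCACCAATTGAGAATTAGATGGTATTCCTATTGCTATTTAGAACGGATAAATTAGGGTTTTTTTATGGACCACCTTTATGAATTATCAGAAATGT

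These stretches differ in base composition. G and C made up 52.9% of the bases between His2Av and ball, 31.7% of those between His3.3A and CG14036, 43.1% of those between His4r and put, and 30.7% of those around the His3.3B summit. The His3.3B stretch is intron around a summit and the others lie between starts, so their shares are not ranked against each other. In the 259 bp between His3.3B and Ost48 the share was 32.8%. Over the 300 bp from 250 bp before the outermost start to 50 bp after it, the share of G and C was 46.0% for His2Av, 41.3% for His3.3A, 33.7% for His3.3B and 47.7% for His4r, against a median of 38% over protein-coding promoters. Its part in the values below was not tested.

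Promoter words were looked for in the same windows. With so few genes, no count of a word is read as different from its share of all promoters. On either strand, TATCGATA (the DNA replication-related element), GGTCACAC (the core of core-promoter motif 1), CACGTG (an E-box), CAGGTA (the Zelda core) and TGCGGATG were in the 300 bp window of none of these 4 genes, and they occurred in 9.36%, 7.69%, 4.2%, 6.24% and 0.759% of the 13968 protein-coding promoters. TGCGGATG was included as a word of the strongest peaks in these data. The window of His3.3B held TATAAA upstream of its outermost start, and just after that start GAGAG on the strand opposite to the gene. These words were in 45.8% and 29.7% of promoters, and His2Av, His3.3A and His4r held neither.

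His2Av (FBgn0001197) spans chr3R:26866929-26869220 on the plus strand, in 2 annotated transcripts with 1 start. Its optimal peak spanned chr3R:26866563-26866901, with its summit at 26866724, which is 205 bp upstream of the His2Av start. That position is in an intron of ball, 83 bp from the start of ball, so the start nearest to the summit is that of ball. The product of ball is a nucleosomal histone kinase that phosphorylates H2A. Summits in the separately called replicate lists lay 206, 211 and 207 bp upstream of His2Av in replicates 1, 2 and 4, a range of 5 bp.

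The signal, a value that the authors' peak caller gave each region on a scale that is not stated, was 189 in replicate 1, 120 in replicate 2 and 273 in replicate 4 for this His2Av region, and 581 in the pooled list. Signals are not comparable between lists, so ranks are given. Among 30000 regions in each list, the region held rank 886, 962 and 849 in replicates 1, 2 and 4, and rank 872 in the pooled list. In each replicate over 96% of the regions had a lower signal, and the mean was 97.0% ± 0.192 (SD, n = 3). The pooled signal of 581 lay above the optimal median of 268, and His2Av took place 1050 among the 8565 protein-coding genes with a pooled region. The optimal peak was 339 bp wide, against a median of 464 bp over that list. In replicates 1, 2 and 4 its width was 122, 440 and 336 bp, against list medians of 416, 440 and 484 bp, so it equalled the median in replicate 2. All other regions counted for the members had exactly the median width of their list. A width below the median was not particular to His2Av, since optimal peaks in eIF3h, a gene upstream of His3.3A, were 231 and 124 bp wide.

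A second, weaker region of His2Av lay in its intron. The summit was 638, 611 and 630 bp downstream of the start in replicates 1, 2 and 4, and 618 bp in the pooled list. Its rank was 9480, 10099 and 15497 in replicates 1, 2 and 4 and 9332 in the pooled list, below the size of the optimal list in each. Replicate 4 had 1 more region, in a coding exon, at rank 28411.

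His3.3B (FBgn0004828) spans chrX:9152523-9156669 on the minus strand and has 4 transcripts from 3 starts. Its optimal peak spanned chrX:9155113-9155576 with the summit at 9155345. The summit lay 1324 bp inside the outermost start, 268 bp downstream of the middle start at 9155613 and 333 bp upstream of the innermost start at 9155012. No start of another gene was nearer. Replicate summits of highest signal lay 1435, 1328 and 1343 bp inside the outermost start in replicates 1, 2 and 4, a range of 107 bp, wider than at His2Av.

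The His3.3B region had a signal of 68.1 and rank 3958 in replicate 1, 52.5 and rank 3282 in replicate 2, and 130 and rank 2904 in replicate 4. In the pooled list it had a signal of 239 and rank 3369. All 4 ranks fall within the first 5862, the size of the optimal list, and the pooled signal lay under the optimal median of 268. On average 88.7% ± 1.78 of the regions in a replicate list had a lower signal (SD, n = 3). His2Av exceeded His3.3B in 3 of 3 libraries, by 8.27 ± 1.76 percentile points (SD over the 3 libraries), and the exact two-sided sign-flip permutation test gave p = 0.25, the smallest that 3 libraries allow. It was the only pair of members with a region in every replicate.

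His3.3B also had regions on both sides of its main peak. One in the intron closer to the outermost start had a pooled signal of 122 at rank 7530, and its counterparts took rank 9692 in replicate 1 and rank 5824 in replicate 4. Replicate 2 had only a region of rank 23357 nearby. Further into the gene, the pooled list held regions of rank 19964 and 25464, the second with its summit in a coding exon. Within 500 bp of the outermost start, which is used by 2 of the 4 transcripts, the highest pooled region had rank 27722.

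His3.3A (FBgn0014857; chr2L:5055058-5056149, plus strand) encodes the same protein as His3.3B and had no optimal peak. Its pooled region had a signal of 74.6 at rank 13141, with the summit in the coding exon 264 bp downstream of the outermost of its 2 starts. The highest region in replicate 1 had rank 8988 and a signal of 35.4, and that in replicate 4 had rank 15430 and a signal of 34.1. Replicate 2 listed no region for the gene. The summits were 219 bp inside the gene in replicate 1 and 15 bp upstream of its start in replicate 4, so the 2 libraries placed their highest region 234 bp apart. Of the 8565 protein-coding genes with a pooled region, 1126 (13.1%) likewise had none in replicate 2.

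His4r (FBgn0013981; chr3R:14625755-14626614, plus strand) fell just short of the optimal list. Its pooled region, chr3R:14625457-14625920, had a signal of 137 and rank 6577, where the lowest optimal signal was 151. The summit lay 66 bp upstream of the His4r start and 14 bp inside put, in the 5′ UTR of that gene. The libraries differed. The highest region had a signal of 96.9 at rank 4349 in replicate 4 and 31.8 at rank 10513 in replicate 1. Replicate 2 listed no region. The summit of this highest region lay 60 bp upstream of the His4r start in replicate 4 and 247 bp upstream in replicate 1, a range of 187 bp. Closer to the pooled summit, 38 bp upstream of the start, replicate 1 had only a region of rank 28646. Of the 4412 protein-coding genes with a region among the 5862 highest of replicate 4, 114 (2.58%) had no region in replicate 2, and 457 (10.4%) had none among the 5862 highest of either replicate 1 or 2. His4r belongs to both sets.

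BigH1 (FBgn0038252; chr3R:14663450-14664822, plus strand) had no region within 500 bp of its start in any list. Its only region came from replicate 1, with a signal of 20.2 at rank 23528 and a summit 1239 bp inside the gene, in its coding exon. The optimal, pooled, replicate 2 and replicate 4 lists held no region for it. Rad17, its divergent partner, had no pooled region either.

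By pooled signal the order was therefore His2Av, His3.3B, His4r and His3.3A, with BigH1 unlisted. The order of His4r and His3.3A did not hold across libraries, since replicate 4 ranked His4r higher (4349 against 15430) and replicate 1 ranked it lower (10513 against 8988). His2Av came first and His3.3B second in all 3 replicate lists.

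**Figure D1:**
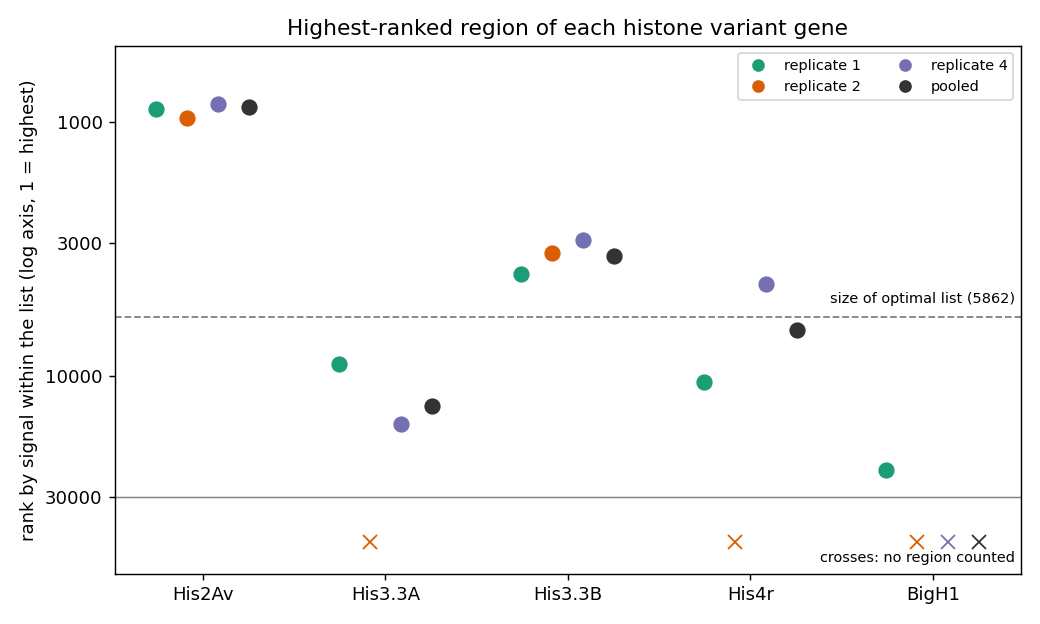
Rank by signal of the highest region of each gene in the 3 replicate lists and the pooled list, on a log axis with the highest rank at the top; crosses mark lists with no region for the gene, the dashed line the size of the optimal list (5862) and the solid line the size of each list (30000). His2Av and His3.3B lie above the dashed line in all 4 lists, His4r does so in replicate 4 alone (rank 4349), and replicate 2 has no region for His3.3A, His4r and BigH1.

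Over all 30000 regions, replicate 1 listed a region for 5 of the 5 genes, replicate 2 for 2 and replicate 4 for 4, beside 61.1%, 61.7% and 60.2% of protein-coding genes. The pooled list did so for 4, beside 61.3%. A region in every replicate was found for 2 members, His2Av and His3.3B, beside 46.1% of protein-coding genes. With only the 5862 top-ranked regions of each replicate kept, 2 members had one in replicate 1, 2 in replicate 2 and 3 in replicate 4, beside 29.8%, 30.3% and 31.6%. Again 2 members, His2Av and His3.3B, had one in every restricted list, beside 24.8%. With so few genes, none of these counts is read as different from the background.

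The libraries differed in how many regions they placed at these genes. Replicates 1, 2 and 4 listed 10, 4 and 13 regions, which is 2.0, 0.8 and 2.6 per member. Over protein-coding genes of at most 5000 bp the means were 0.776, 0.78 and 1.0 per gene. Replicate 4 held 4 regions for His3.3A, each overlapping the next, from its start to its 3′ UTR, where replicate 2 held none. They had rank 15430, 18692, 23909 and 29487, so they are not read as separate sites.

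**Figure D2:**
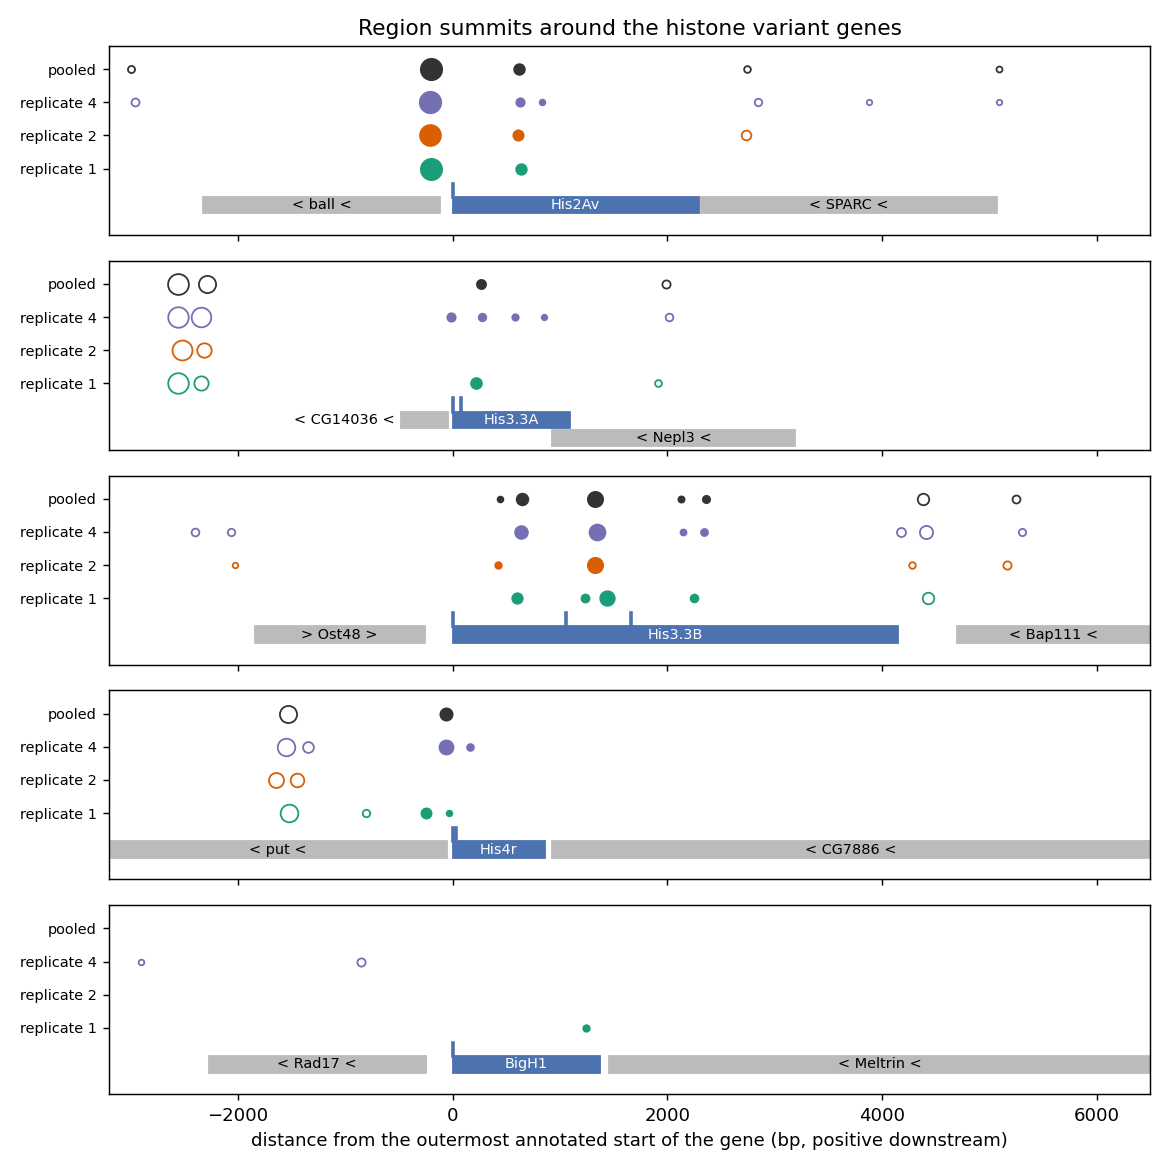
Positions of region summits around each gene, as distance in bp from its outermost annotated start (0) in the direction of transcription, with 1 row per list. Filled circles are regions counted for the gene, open circles other regions nearby, and larger circles have a higher rank; blue bars are the histone genes with their starts as ticks, grey bars the neighbouring genes, cut at the edge of the plot, with their direction. The main His2Av summits align upstream of the start in all 4 lists, with weaker ones downstream, the main His3.3B summits lie between its middle and innermost starts, and BigH1 has 1 filled circle, from replicate 1.

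Stronger peaks lay upstream of His3.3A and His4r, outside the 500 bp allowed. Upstream of His3.3A, 2 optimal peaks sat 2561 and 2288 bp before its start, in an intron and the 5′ UTR of the translation initiation factor gene eIF3h, with signals of 541 and 331. The higher one held rank 1027, 1192 and 1046 in replicates 1, 2 and 4. Upstream of His4r, an optimal peak with a signal of 329 lay 1530 bp before its start in an intron of put, at rank 1947, 3559 and 2006 in the highest corresponding region of replicates 1, 2 and 4. Of the counted summits that lay outside a gene, the farthest from a start was 247 bp upstream of His4r, in replicate 1. Beyond the limit, replicate 1 had a region 809 bp upstream of His4r (rank 19112) and replicate 4 one 852 bp upstream of BigH1 (rank 16101). Past the 3′ end of His3.3B, which the rule does not extend, the pooled list had a region of rank 7763 with its summit 239 bp beyond the gene. Replicate 1 had a summit 285 bp beyond it (rank 7658), replicate 2 one at 133 bp (rank 23213), and replicate 4 had summits at 264 bp (rank 5323) and 34 bp (rank 13520).

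The upstream neighbours show how far a value is the member's own. For ball and for CG14036 the highest pooled region was the one also counted for His2Av and His3.3A. For put the highest was another, the intronic peak of signal 329. The pooled His4r region still counted for put as well, its summit being 14 bp from the put start and 66 bp from the His4r start. Neither Ost48 nor Rad17 had a pooled region.

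Other genes had nearly the same ranks in all 3 replicates. Closest to His2Av among 6440 protein-coding genes with a region in every replicate were NiPp1, an inhibitor of protein phosphatase 1, and CG6805. Both had rank 820, 887 and 790 in replicates 1, 2 and 4, and differed from His2Av by at most 0.25 percentile points. Ranks identical in all 3 lists point to 1 region counted for both genes, so they are not 2 separate likenesses. Closest to His3.3B were Acat1 (rank 3760, 3515 and 2857) and shot (rank 3722, 3345 and 3082), within 0.777 and 0.787 percentile points. shot encodes a cytoskeletal linker protein.

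Among genes that handle histones, 18 of 43 had an optimal peak under the same rule, beside 30.8% of protein-coding genes and 2 of the 5 histone variant genes. As used here, that set also holds the centromeric H3 gene cid and 4 sperm chromatin genes, none of which had an optimal peak. The lists are small, and no count for a single list is read as different from that background. In 8 of the 18 the highest peak lay closer to the start of another gene, as at His2Av. The same share over all protein-coding genes is not given, so this count is not read as particular to these genes. With a peak counted only for the nearest start, 19.3% of protein-coding genes had one instead of 30.8%. Genes for H3.3 deposition had one at 5 of 6. With a TSS window of 250 bp, gene bodies still included, the count was 2 of 6, beside 27.7% of protein-coding genes. The remodeller gene Chd1 was highest, with a pooled signal of 798, followed by yem, whose product works with HIRA, at 492, and XNP, the fly ATRX, at 379. Spt6 (328) and asf1 (164) followed. For Hira itself, the H3.3 chaperone, the pooled region had a signal of 69.2 at rank 14430. Replicate 4 listed a region at rank 7077, and replicates 1 and 2 listed none.

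Genes of the Domino and Tip60 complexes, which exchange H2Av, had an optimal peak at 6 of 15, beside the 30.8% of all protein-coding genes. Gas41 had the highest signal, 2122 at rank 32, and it held rank 35, 25 and 30 in replicates 1, 2 and 4. The ATPase gene pont followed at 1067, with its summit closer to the start of Sirt6. Next was dom at 348, which encodes the ATPase that exchanges H2Av. Tip60, YL-1, Bap55, Eaf6, Ing3, Nipped-A, DMAP1, MrgBP and Brd8 had no optimal peak.

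General histone chaperone genes had an optimal peak at 3 of 9, close to the 30.8% of all protein-coding genes. They were dre4 (343), which encodes the FACT subunit Spt16, Nasp (207) and Nap1 (155). The genes for the 3 subunits of the chromatin assembly factor CAF-1 had none, nor did Nph, Nlp and Ssrp. Of the centromere genes, Cenp-C had an optimal peak (223), and cid, which encodes the centromeric H3, and its loading factor gene cal1 had pooled signals of 136 and 60.3 without one. Of the genes that serve the histone locus body and histone mRNA processing, 3 of 6 had an optimal peak, beside the same 30.8%, namely mxc (321), mute (235) and Slbp (196), the gene for the stem-loop binding protein. FLASH, Lsm10 and Lsm11 had none. The sperm chromatin genes ProtA, ProtB, Mst77F and Prtl99C had no region in any list.

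**Figure D3:**
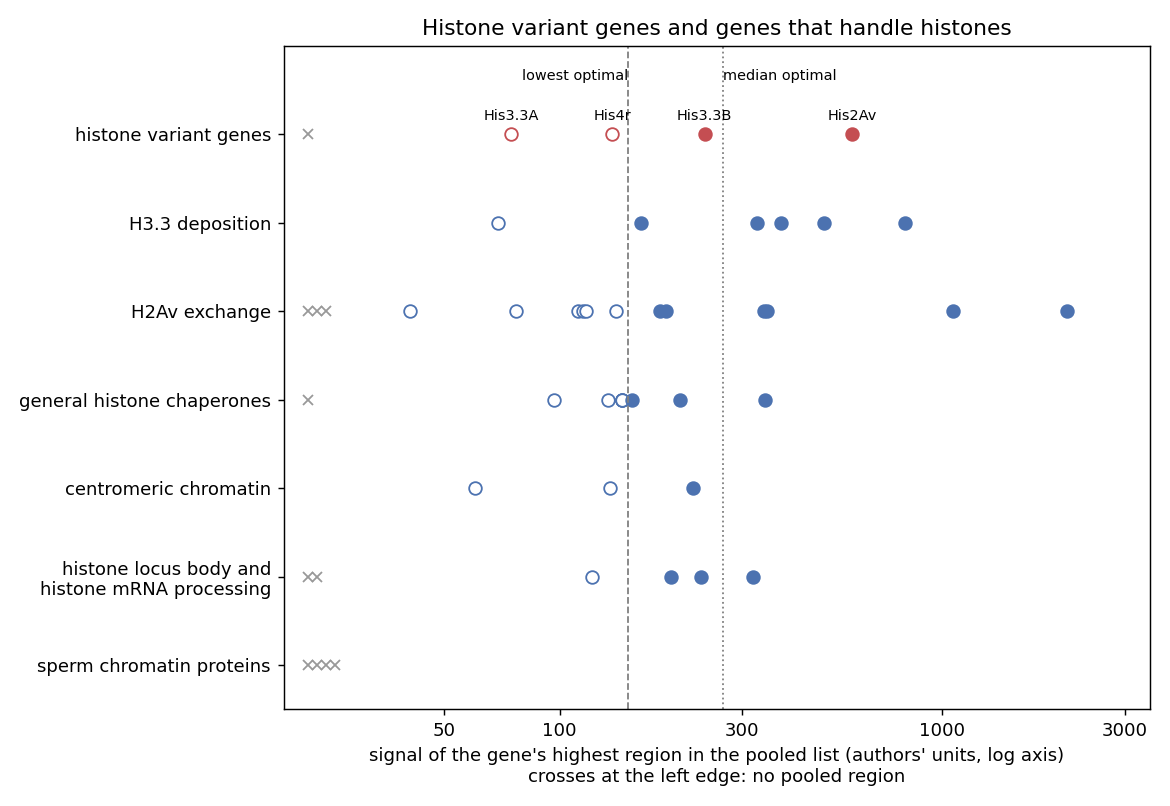
Signal of the highest pooled region of each gene, on a log axis in the authors' units, for the histone variant genes (red) and 6 lists of genes that handle histones (blue). Filled circles rank within the optimal list, open circles below it, and crosses mark genes with no pooled region; vertical lines give the lowest (151) and the median (268) optimal signal. His2Av (581) lies above the median line, His3.3B (239) between the lines, and the sperm chromatin genes show 4 crosses.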

How the data were processed

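Binding of GFP-tagged CG13775 was measured in 3 libraries. The authors deposited, per assembly, region lists for each replicate and for the pooled libraries, with background included, and an optimal list after the IDR filter. The records name a control file for these lists, and the caller is not given in the sources used here. The deposited signal has no stated scale. The deposited −log10 q column was tied at a ceiling for 4640 optimal peaks, so signal was used for ranks. No read counts are in the lists, so depth is unknown and intervals cover counting error over genes only. The labels call the libraries biological replicates.

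The 5 dm6 lists were used, all within the arms of Release 6, with the Ensembl release 115 annotation. The dm3 lists were not used. The optimal list equals the 5862 highest pooled regions, so it is no independent support for them. Regions count for every gene under the rule. Members, gene lists, words and tests were chosen with earlier results of these data known. Of 44 listed symbols, 43 matched (DLP did not). Apart from the members, the text names neighbours, genes nearer to a summit, up to 3 genes per list with the highest optimal signal, list genes with none, the 2 genes closest in rank, and the genes added after their values were seen (Spt6, asf1, eIF3h). The sequence around the start of BigH1 is not reported here. Assignment was tested on simulated data. Python 3.11.15, numpy 2.4.6, pandas 2.3.3, scipy 1.17.1 and matplotlib 3.10.9 were used.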

Additional observations from a re-analysis of the deposited data

How the results depend on the processing

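The count of 2 members with an optimal peak was unchanged with TSS windows of 250 bp and 1000 bp, with the TSS window alone, with any overlap of the region by at least 1 bp and in the restricted lists of replicates 1 and 2, and was 3 in that of replicate 4. It was 1 with the gene body alone (His3.3B), 1 among the 2931 highest optimal peaks (His2Av), 4 with all pooled regions, and 1, His3.3B, when a peak counted only for the nearest start, an alternative chosen after seeing the data. The count of 2 in every restricted replicate list became 1 with 2931 regions per list, and was 2 without any single replicate. The difference between His2Av and His3.3B ranged from 7.29 to 8.99 percentile points, leaving out each replicate. The mean share of lower-ranked regions ranged, leaving out each replicate, from 96.9% to 97.1% for His2Av, from 87.9% to 89.7% for His3.3B, from 65% to 85.5% for His4r and from 48.6% to 70% for His3.3A. For the last 2 genes 1 library then decides the value. In the pooled list, ranking by the q-value column could not be done for His2Av and His3.3B, which are at its ceiling there. The 18 genes that handle histones became 10 among the 2931 highest optimal peaks. There H3.3 deposition and H2Av exchange genes kept 4 each, general chaperones 1, centromere genes 0 and histone locus body genes 1. No share of protein-coding genes is given for the 2931 highest regions, so counts at that cut have no background beside them. The share of protein-coding genes with an optimal peak, 30.8%, was 27.7% at 250 bp, 32.3% at 1000 bp, 26.2% with the TSS window alone, 24.0% for short genes, 55.6% for genes with a divergent partner and 19.3% for the nearest start only, the last 2 chosen after seeing the data. The cause of these shifts was not tested beyond what each rule includes. No paired analysis was possible because there is a single group and so no groups to pair by replicate number. The test of His2Av and His3.3B pairs genes within a library.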

Other observations

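The stretch between His2Av and ball held the word ATCGAT 2 times, a word chosen after the sequence was seen. The summit of the His2Av peak lies outside this stretch, in an intron of ball. At least 2 copies occurred in the 300 bp window of 6.82% of 13968 protein-coding promoters and at least 1 copy in 23.3%. His3.3A, His3.3B and His4r held none. The word reads the same on both strands and is the core of TATCGATA, which none of these 4 windows contained.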
